A study of Sus scrofa with 10 samples.

Results

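Radial glia, the stem cells of the developing cortex, and the astroglia that arise from them share a small set of genes. The genes SOX2, SOX9, HES1, HOPX, VIM and FABP7 were followed here through 10 single cell and single nucleus libraries of the pig medial entorhinal cortex. The set is defined by these 6 names, and 5 of them were found among the 22452 gene rows of the count tables. HOPX, a homeodomain protein known as a marker of outer radial glia, was not matched to a row by its symbol or through a table of gene identifiers, so it is not analysed here.

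SOX2 and SOX9 are transcription factors of the SOX family that keep neural stem cells in the progenitor state, and SOX9 is also known for turning progenitors toward glia. HES1 is a repressor that Notch receptors switch on, and it holds back genes that start neuronal differentiation. VIM encodes vimentin, an intermediate filament protein of radial glia and of the cells of vessels and connective tissue. FABP7 encodes the brain fatty acid binding protein, long used to stain radial glia and immature astrocytes.

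The libraries came from pigs with no named treatment or genotype. Whole cells were taken at embryonic day (E) 50 (1 library of 3 pooled brains), at E60 (3 libraries of 1, 1 and 2 pooled brains), at E70 (3 libraries of 2, 1 and 1 pooled brains) and from 1 brain labelled adult. Isolated nuclei came from 1 brain at E70 and from 1 adult brain. These numbers follow the labels, and the study's supplement gives the pooled brains of E70_1 and E70_3 the other way round. Adult is the labels' word, where the study describes that stage by a postnatal day. Libraries are named below by stage and replicate number. Replicate libraries existed for whole cells of E60 and of E70 alone. Nothing in the labels says how the brains of different libraries were related, so p-values measure the spread between these libraries, which may be in part technical.

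The tables held 28229 cells, with 493 to 8171 cells per library and a library median of 690 to 9403 transcript counts (unique molecular identifiers, UMIs) per cell. Of 27777 distinct cell barcodes, 449 occurred in more than 1 library. Clusters were named from marker genes, and the 5 genes were kept out of both the clustering and the markers. Radial glia-like cells (2525) and astroglia-like cells (2935) together made a class of 5460 cells. Neuron-like cells numbered 9133, intermediate progenitor-like (IP-like) cells 443 and vascular-like cells (endothelial, mural and fibroblast) 2776. A level is given in CPM, the UMIs of a gene per 1000000 UMIs summed over the cells of a class in a library, where the class had at least 20 cells. These counts are read from the 3′ end of transcripts and carry no scaling for length, so levels were compared within a gene and not between genes. Differences between classes are described without a test, since the classes were made from the same cells.

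Libraries E60_1 and E60_2 stood apart from their label. In their radial glia and astroglia-like cells the 3 telencephalon genes EMX1, EMX2 and LHX2 summed to 2.26 and 2.07 CPM, against 125 to 288 CPM in the other fetal whole cell libraries. The 6 midbrain and hindbrain genes EN1, EN2, PAX3, PAX7, IRX2 and IRX3 summed to 104 and 316 CPM in these libraries and to 162 CPM in E50_1, against 7.14 to 23.6 CPM in E60_3 and the E70 whole cells. Different clusters also made up the class. A cluster led by DBX1, PAX3 and S100A12 gave 780 cells in E60_1 and 498 in E60_2 but none in E60_3. A cluster led by SLCO1C1, HGF and GLI3 gave 8, 13 and 231 cells in these libraries. E50_1 mixed both, with 310 cells of the former and 217 of the latter, so its values of the class cover both. The class ratios and the E60 against E70 values are therefore given with and without them. Microglia-like cells, which should lack SOX2, SOX9 and FABP7, served as background for RNA free in the cell suspension. For FABP7 that background was 462 CPM in E60_1 and 426 CPM in E60_2, against 24.6 to 80.2 CPM in the other fetal whole cell libraries with 20 such cells.

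All 5 genes were higher in radial glia and astroglia-like cells than in neuron-like cells in 7 of 7 whole cell libraries that held both classes. Within a library the log2 ratio averaged 3.36 ± 0.62 for SOX2, 3.81 ± 0.35 for SOX9, 4.60 ± 1.54 for HES1, 5.14 ± 0.73 for VIM and 3.55 ± 1.11 for FABP7 (SD, n = 7 libraries, with 1 CPM added). Without E60_1 and E60_2 the averages were 3.32, 3.82, 5.32, 5.49 and 3.28 (n = 5). Neuron-like cells of E60_1, E60_2 and E70_1 held only 1 or 2 HES1 UMIs. Their HES1 level was 0.330 to 1.39 CPM in all of these libraries but E50_1, where it was 4.88 CPM. The HES1 ratios over neuron-like cells, with those of vascular-like cells below, therefore depend on the 1 CPM added. The genes parted in vascular-like cells. HES1 and VIM were higher there than in neuron-like cells in 5 of 5 libraries, by log2 ratios of 4.90 ± 1.82 and 5.02 ± 1.20 (SD, n = 5). SOX2 (-0.77 ± 0.98), SOX9 (0.15 ± 0.86) and FABP7 (-0.15 ± 1.04) had ratios within 1 SD of 0. Without E60_1 and E60_2 the vascular over neuron averages were 5.80 ± 1.88 for HES1, 5.68 ± 1.05 for VIM, -1.11 ± 1.19 for SOX2, -0.37 ± 0.39 for SOX9 and -0.59 ± 0.93 for FABP7 (SD, n = 3), so that SOX9 changed sign. Against the radial glia and astroglia-like cells of the same library, vascular-like cells held less SOX2, SOX9 and FABP7 in 6 of 6 libraries, but had the higher HES1 in 5 of 6 and the higher VIM in 3 of 6. Without E60_1 and E60_2 the counts were 4 of 4 for each of the first 3 genes and 3 of 4 for HES1 and for VIM.

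**Figure D1:**
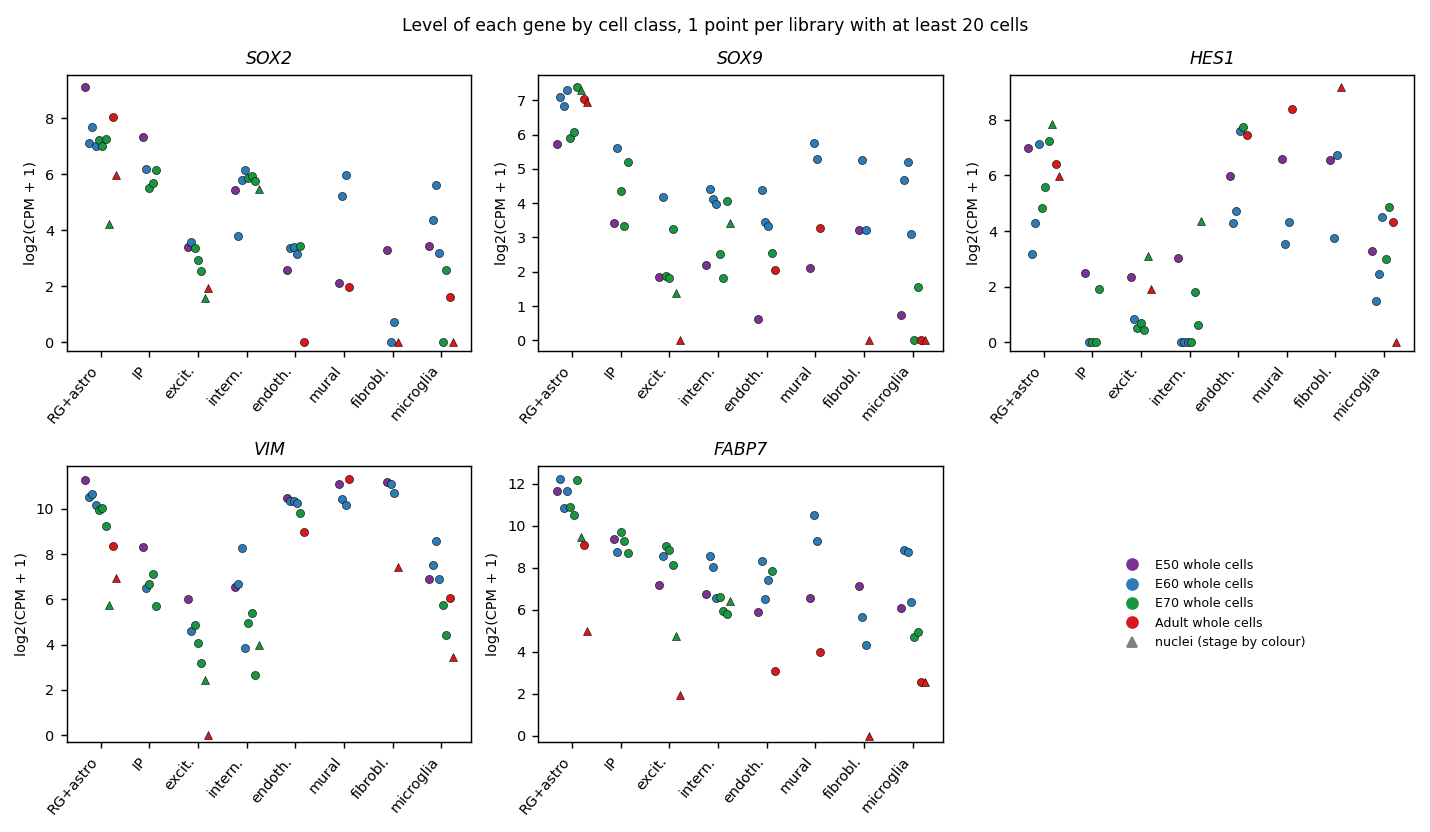
Level of each gene, as log2(CPM + 1) on the vertical axis, in 8 cell classes, with 1 point per library that held at least 20 cells of the class, coloured by stage, and with nuclei as triangles. SOX2, SOX9 and FABP7 are highest in radial glia and astroglia-like cells, while HES1 and VIM are as high in endothelial-like, mural-like and fibroblast-like cells.

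The upstream sequences of FABP7 and VIM are shown because these had the most UMIs of the 5 genes and parted in vascular cells, where VIM was high and FABP7 was not. The UMI totals served only to choose them and do not compare levels between genes. Each is the 250 bases before the gene's RefSeq start on Sscrofa11.1, read 5′ to 3′ on the gene's strand. FABP7 lies on the minus strand at chr1:39872198-39876272 and its window is chr1:39876273-39876522. VIM lies on the plus strand at chr10:43516441-43526172 and its window is chr10:43516191-43516440. Capitals mark the letters ACAAAG (a core that SOX factors bind) and TGGGAA (the core of RBPJ, the DNA-binding partner of Notch), searched on both strands.
FABP7: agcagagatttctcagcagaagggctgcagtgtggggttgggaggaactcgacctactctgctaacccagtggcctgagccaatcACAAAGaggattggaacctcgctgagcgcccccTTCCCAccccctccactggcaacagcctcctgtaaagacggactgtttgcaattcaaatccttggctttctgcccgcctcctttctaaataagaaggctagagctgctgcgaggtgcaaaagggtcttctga
VIM: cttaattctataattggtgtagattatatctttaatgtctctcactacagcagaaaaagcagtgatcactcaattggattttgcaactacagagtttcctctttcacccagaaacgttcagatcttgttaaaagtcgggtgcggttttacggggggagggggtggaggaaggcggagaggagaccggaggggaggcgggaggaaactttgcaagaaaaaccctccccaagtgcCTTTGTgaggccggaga
The FABP7 window held both motifs once, ACAAAG on the gene's strand and TGGGAA on the other. The VIM window held ACAAAG once, on the other strand, and no TGGGAA. Of 19556 such windows over protein-coding genes with no unknown base, 12.1% held ACAAAG and 24.6% held TGGGAA on either strand. These matches describe the letters and are not evidence of binding.

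SOX2 was highest at E50 in radial glia and astroglia-like cells, and was the member whose E60 and E70 whole cell values lay closest together. It lies on chr13:119668476-119669435. Its level was 550.5 CPM in E50_1, then 139, 206 and 126 CPM in the E60 libraries and 148, 127 and 151 CPM in the E70 whole cells. The 58 adult whole cells of the class, which held GFAP at 2286 CPM, had SOX2 at 264 CPM. The 6 E60 and E70 values overlapped and all lay below E50, a stage with a single library. Once each cell was thinned to 1000 UMIs, 42.7% of cells held a SOX2 UMI at E50, against 13.02% to 18.7% at E60 and 13.3% to 20% in E70 whole cells, and at most 3.83% of microglia-like cells in any whole cell library. Median depths were 3562 to 13154 UMIs in the whole cells of the class and 4738 to 14188 UMIs in microglia-like cells. Without thinning the shares were 92.6% at E50, 39.7% to 74.3% at E60 and 70% to 76.7% at E70. Oligodendroglia-like cells had SOX2 at 501 CPM in E50_1 and at 66.6 to 167 CPM in E60_1, E60_2 and E70_3.

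SOX9 went the other way at E50. It lies on the minus strand at chr12:8642154-8647315. Its level in radial glia and astroglia-like cells was 51.6 CPM in E50_1, 136, 113 and 158 CPM at E60 and 59.1, 66.98 and 166 CPM at E70. The adult whole cells had 131 CPM. E50_1, E70_1 and E70_2 thus formed a low group and the E60 libraries and E70_3 a high one. The division was also seen in the radial glia-like cells alone, where SOX9 was at 54.9 CPM in E50_1, 55.1 and 67.1 CPM in E70_1 and E70_2, and 103 to 171 CPM in E60 and E70_3. E70_1 and E70_2 held only 30 and 60 cells of the class. Microglia-like cells had SOX9 at 0.662 CPM in E50_1 but at 24.6 and 35.5 CPM in E60_1 and E60_2.

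HES1 differed between libraries of the same stage, both in glia and in vessels. It lies on chr13:131135970-131137865. In radial glia and astroglia-like cells it stood at 126.5 CPM in E50_1, 8.12, 18.5 and 138 CPM at E60, 27.6, 47.2 and 152 CPM at E70 and 84.3 CPM in the adult whole cells. The SD at E60 was larger than the mean, at 54.9 ± 72.2 CPM (SD, n = 3), and E60_3 alone was high. In vascular-like cells HES1 was at 73.1 CPM in E50_1, 17.8, 25.4 and 158 CPM at E60, 209 CPM in E70_3 and 195 CPM in the adult. E60_1 and E60_2 were the lowest whole cell libraries in both classes, and E60_3 and E70_3 were high in both.

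The immediate early genes, which cells are known to switch on quickly when tissue is dissociated, were also high in the glial class of E60_3 and E70_3. Summed over FOS, FOSB, JUNB, EGR1, IER2 and ATF3, a list drawn up after HES1 was seen to vary, they reached 1722 CPM in E60_3 and 1559 CPM in E70_3, against 31.1 CPM in E60_1, 62.3 in E60_2, 114 in E70_1, 66.98 in E70_2, 372 in E50_1 and 161 in the adult whole cells. E60_3 and E70_3 shared a sequencing pool, as did E60_1 and E70_1. Nearly all of the sum was FOS, EGR1 and ATF3, since JUNB, IER2 and FOSB were at 5.38 CPM or less in the glial class of every library. In vascular-like cells the same sum was 784 and 681 CPM in E60_1 and E60_2, where HES1 was low, and 4997 CPM in the adult. In E70 nuclei it was 84.9 CPM beside the highest HES1 of the class, 228 CPM. The part of these genes, of the pool and of the region in the HES1 values was not tested.

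**Figure D2:**
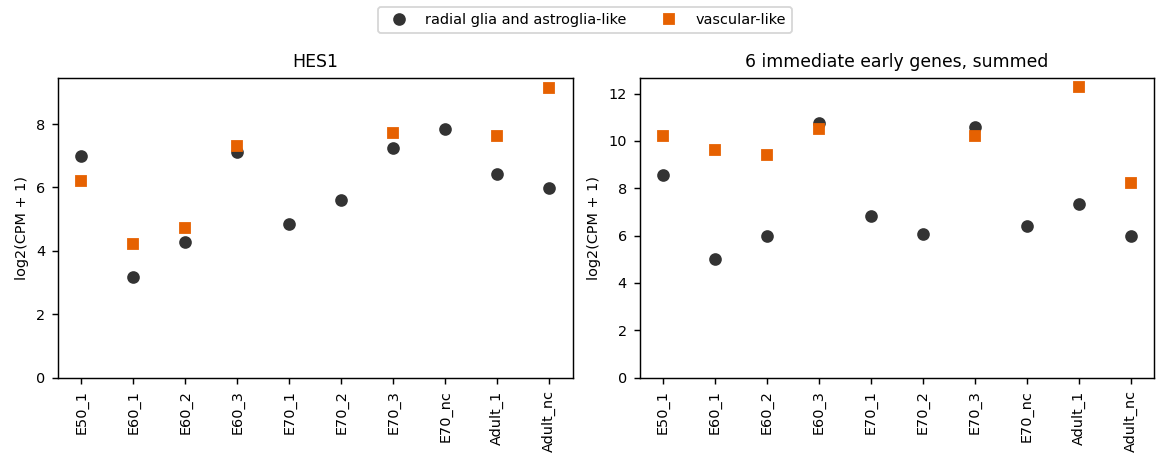
HES1 (left) and the sum of 6 immediate early genes (right), as log2(CPM + 1), in radial glia and astroglia-like cells (dark circles) and vascular-like cells (orange squares) of each library with at least 20 cells. HES1 is low in both classes of E60_1 and E60_2, and the early genes are low there in the glial class but not in the vascular one.

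Among whole cells of the glial class VIM was highest at E50 and lowest in the adult. It lies on chr10:43516441-43526172, where its window was shown. In radial glia and astroglia-like cells it stood at 2499 CPM in E50_1, 1491, 1592 and 1158 CPM at E60, 985, 1065 and 610.0 CPM at E70 and 323 CPM in the adult whole cells. The lowest E60 library lay above the highest E70 library. In the adult 55 of the 58 cells were of 1 astroglia-like cluster, which gave 20 of 378 cells in E60_3 and 80 of 431 in E70_3, so adult and fetal values of all 5 genes come from different clusters. Within that cluster VIM stood at 1957 CPM in E50_1, 1268, 1848 and 2171 CPM at E60, 535 CPM in E70_3 and 325 CPM in the adult. Vascular-like cells had VIM at 1723 CPM in E50_1, 1308 to 1382 CPM at E60, 886 CPM in E70_3 and 1005 CPM in the adult. The make-up of that class differed, with 52 mural-like among 145 vascular-like cells in the adult and 69 among 923 in E60_2. Endothelial-like cells alone had 1413 CPM in E50_1, 1215 to 1319 CPM at E60, 889.5 CPM in E70_3 and 500.4 CPM in the adult, the lowest of the 6 whole cell libraries. Mural-like cells, the contractile cells around capillaries and arteries, held 2583 CPM in the adult and 2218, 1366 and 1138 CPM in E50_1, E60_1 and E60_2.

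FABP7 ranged between 1435 and 4809 CPM in fetal whole cells of the class and was lower in the adult. Its level was 3242 CPM in E50_1, 4809, 1831 and 3252 CPM at E60, 1887, 1435 and 4608 CPM at E70 and 540 CPM in the adult. The E60 and E70 values overlapped. The highest values were in 1 of the astroglia-like clusters, led by S100A1, MFGE8 and CXCL14, which held 9447 CPM in E70_3, 7409 in E60_3, 6795 in E60_1 and 6235 in E50_1. In the same libraries the mitotic radial glia-like cluster, led by CENPF, UBE2C and TOP2A, held 2457, 1680, 3666 and 2757 CPM. The adult cells of the astroglia-like cluster held 529 CPM. FABP7 and VIM thus both were lower in the adult glial class, while SOX9 was inside its fetal range there.

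**Figure D3:**
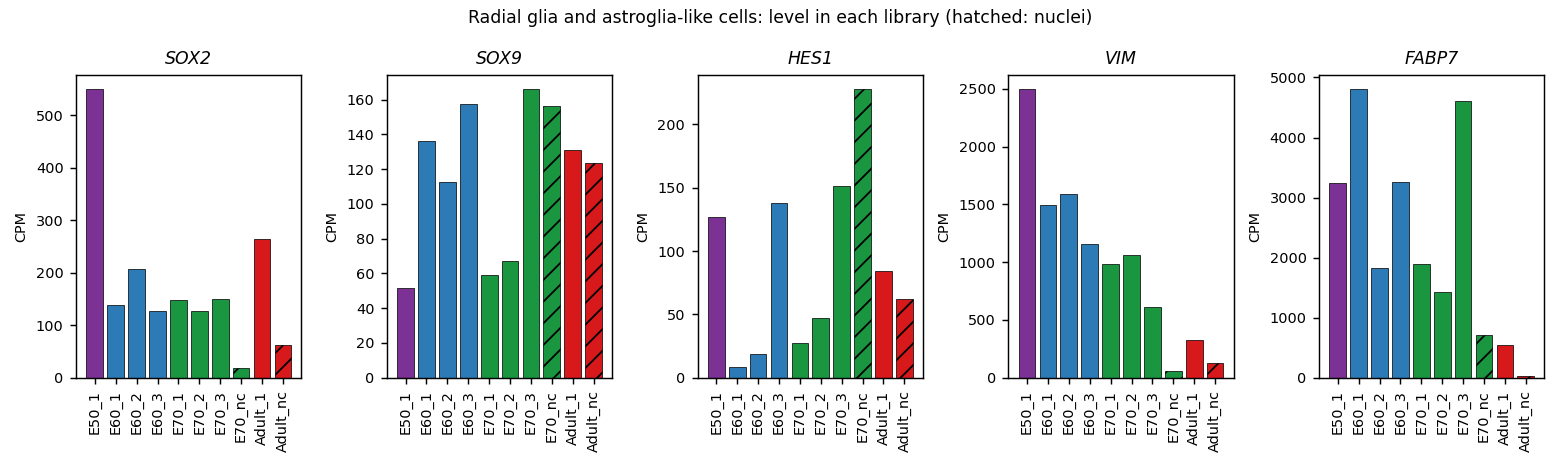
Level of each gene in radial glia and astroglia-like cells, in CPM on a linear axis from 0, with 1 bar per library coloured by stage and hatched for nuclei. Among whole cells VIM is highest at E50 and lowest in the adult, SOX2 stands out at E50, and SOX9, HES1 and FABP7 differ between libraries of 1 stage.

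The question of whether the genes differed between E60 and E70 was tested on UMI sums per library with edgeR's quasi-likelihood test. In radial glia and astroglia-like cells none of the 5 genes passed an adjusted p of 0.05, and neither did any of the 14215 genes tested (0% called), although 2599 had an unadjusted p under 0.05. VIM had the smallest p of the 5, with a log2 E70 over E60 of -0.77 ± 0.36 (SE) and an adjusted p of 0.29 by edgeR. The other values were -0.24 ± 0.32 for SOX2, -0.51 ± 0.42 for SOX9, 0.55 ± 0.97 for HES1 and -0.39 ± 0.55 for FABP7, with adjusted p from edgeR of 0.51 to 0.77. With E60_3 as the only E60 library the values were -0.36 for VIM, 0.20 for SOX2, -0.62 for SOX9, -0.77 for HES1 and -0.25 for FABP7, with none called. DESeq2 called 854 genes (6.01%), none of them among the 5. Without E60_3 edgeR called 1236 genes (8.55%), and without E70_3 it called 1137 (7.58%). SOX9 passed in that last fit, at -1.24 with an edgeR adjusted p of 0.042, which sets the 3 E60 libraries against E70_1 and E70_2.

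In neuron-like cells the 4 genes that passed the filter on low counts did not pass the test either, and HES1 was too low to be tested. This class pools excitatory-like, interneuron-like and other neuron-like clusters, and its make-up differed between libraries. E60_1 held 1, 99 and 661 cells of these and E60_2 held 0, 34 and 80. Excitatory-like cells numbered 1383 in E60_3 and 236, 302 and 1561 in the E70 libraries. The fit therefore compared different mixes of neurons. Of 14033 genes 0 were called (0%), with 3374 at an unadjusted p under 0.05. VIM stood at a log2 E70 over E60 of -1.95 ± 0.68 (SE, edgeR adjusted p = 0.17). It was called by DESeq2 at -1.93 (adjusted p = 0.043), among 1480 genes called (10.5%), and by edgeR without E60_3 at -2.43 (adjusted p = 0.018), among 4709 (31.7%). With E60_3 as the only E60 library VIM was at -0.22, SOX9 at -1.60, SOX2 at -0.35 and FABP7 at 0.12. The libraries labelled E60_1 and E60_2 had VIM in neuron-like cells at 59.3 and 107 CPM, where their microglia-like cells had 183 and 382 CPM, and E60_3 had 21.4 CPM. The other values were -1.22 ± 0.62 for SOX9, -0.24 ± 0.38 for SOX2 and 0.55 ± 0.39 for FABP7.

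In vascular-like cells only E70_3 had the 20 cells asked for, so the comparison set 3 libraries against 1 and took that library to vary like the others. Of 15069 genes 0 were called (0%), with 578 at an unadjusted p under 0.05 and 7 calls by DESeq2 (0.0465%). HES1 stood at a log2 E70 over E60 of 1.65 ± 1.14 (SE, edgeR adjusted p = 0.77). Without E60_3 it was called at 3.14 ± 0.28 (edgeR adjusted p = 0.023), among 2757 genes called (18.6%), which then set E70_3 against the libraries E60_1 and E60_2. Without those E60 libraries 1 library stood against 1, with no test. With all 4 libraries VIM stood at -0.70 ± 0.41 (SE, edgeR adjusted p = 0.77). The difference between the E60 to E70 change of the glial class and that of the vascular class was tested as an interaction with each library as a block. None of the 5 genes passed, nor did any of 15689 genes (0%), with 647 at an unadjusted p under 0.05. DESeq2 was not run on it. For HES1 the difference was 0.08 ± 0.44 (SE, edgeR adjusted p = 0.99).

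Nuclei gave another picture of the same genes at E70. In 115 nuclei of the radial glia and astroglia-like class, SOX2 was at 17.9 CPM (4 UMIs) and VIM at 53.6 CPM (12 UMIs), which is 7.12 to 8.43 times and 11.4 to 19.9 times below the whole cell libraries. FABP7, at 711 CPM, was 2.02 to 6.48 times below them. SOX9 in nuclei (156 CPM) lay inside the whole cell range, and HES1 (228 CPM, 51 UMIs) was 1.504 to 8.27 times the whole cell values. With 1 library of nuclei there was no test. Nuclei here were counted with reads from introns included, as were the whole cells. In interneuron-like nuclei SOX2 was at 43.7 CPM (9 UMIs), against 52.9 to 60.9 CPM in the whole cells. The 23 adult nuclei of the class held 1 to 4 UMIs of each gene and give no usable level.

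Intermediate progenitors are the dividing cells between radial glia and excitatory neurons. In 5 of 5 libraries each gene was lower in IP-like than in radial glia-like cells. The median fold was 2.47 for SOX2, 4.73 for SOX9, 5.24 for FABP7 and 9.18 for VIM. HES1 UMIs numbered 9 over 443 IP-like cells, so no median fold is given for it. In E50_1 its level was 4.57 CPM (8 UMIs), against 118 CPM in radial glia-like cells. E70_3 held 1 UMI. In E60_3, E70_1 and E70_2 there were 0 UMIs in 89, 24 and 22 cells, which allow up to 4.77, 14.7 and 13.7 CPM, against 138, 24.3 and 47.5 CPM in the radial glia-like cells. SOX2 in IP-like cells stood at 161, 71.6, 44.0, 50.3 and 70.9 CPM in E50_1, E60_3, E70_1, E70_2 and E70_3, and FABP7 at 662, 421, 835, 618 and 412 CPM. From IP-like to excitatory-like cells SOX2 was lower by a median of 6.78 times and VIM by 4.93 times, in 5 of 5 libraries each, and FABP7 by 1.49 times.

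SOX2 was higher in interneuron-like than in excitatory-like cells in 5 of 5 libraries, by a log2 ratio of 2.67 ± 0.46 (SD, n = 5). Interneuron-like cells held 42.0, 70.4, 56.7, 60.9 and 52.9 CPM in E50_1, E60_3, E70_1, E70_2 and E70_3, and excitatory-like cells 9.53, 10.9, 9.25, 6.57 and 4.90 CPM. Microglia-like cells of these libraries, where present, held 0 to 9.93 CPM, so the excitatory values were at background and the interneuron values were above it. Of the 924 interneuron-like cells of E50_1, 899 came from a cluster led by LHX9, TFAP2D, TFAP2B, SST and POU4F2, as did all 99 and 34 of E60_1 and E60_2, while those of E60_3 and E70 came mostly from clusters led by DLX1, DLX5 and ERBB4 and by CORT and NXPH1. The cluster led by LHX9 scored 1.30 for interneurons and 1.24 for neurons in general, with 0 interneuron markers among its leading genes. The study lists LHX9 among the enriched genes of a cluster it counts among excitatory neurons. The E50_1 values may thus not be those of interneurons, and the SOX2 and FABP7 log2 ratios include them. In E60_3 and the E70 whole cells alone, interneuron-like cells held SOX2 at 52.9 to 70.4 CPM. Excitatory-like cells held it at 4.90 to 10.9 CPM there. FABP7 had the reverse order, with a log2 ratio of interneuron-like over excitatory-like of -2.03 ± 0.94 (SD, n = 5). Excitatory-like cells held 145 CPM in E50_1, 373 in E60_3 and 523, 459 and 276 in the E70 libraries, against 105, 92.9, 94.4, 59.6 and 54.5 CPM in interneuron-like cells. Microglia-like cells held 66.9, 80.2, 24.6 and 29.4 CPM in E50_1, E60_3, E70_1 and E70_3. At 1000 UMIs per cell 28.1% to 37.3% of excitatory-like cells in E60_3 and the E70 whole cells had a FABP7 UMI, against 2.86% to 7.14% of interneuron-like cells. In nuclei excitatory-like cells had 26.2 CPM, 10.5 to 19.98 times below the whole cells, and interneuron-like cells 82.6 CPM.

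**Figure D4:**
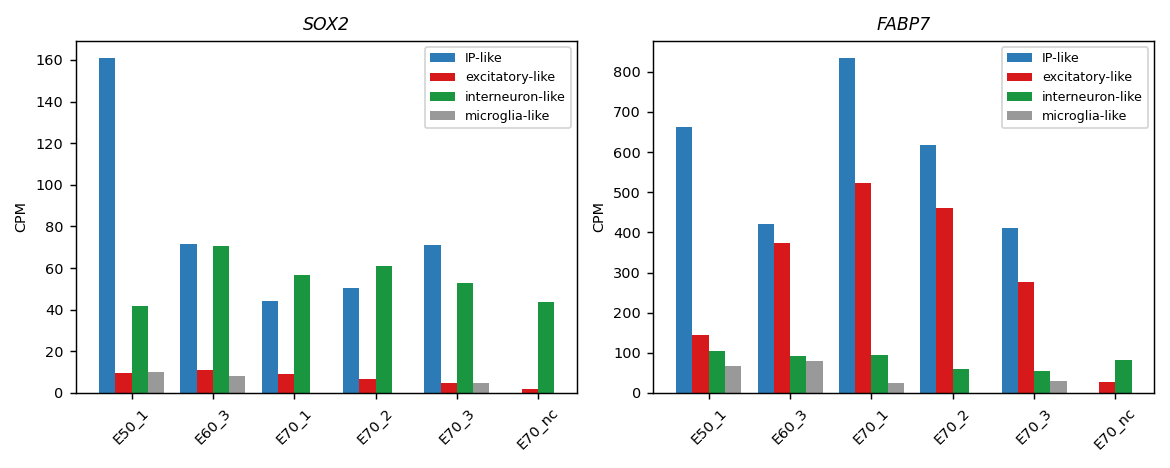
SOX2 (left) and FABP7 (right), in CPM on a linear axis from 0, in IP-like, excitatory-like, interneuron-like and microglia-like cells of 6 libraries (bars are absent where a class had fewer than 20 cells). Among neurons SOX2 is higher in interneuron-like cells and FABP7 in excitatory-like cells of the whole cell libraries.

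HES1 was low in neurons. Excitatory-like cells held 4.03 CPM in E50_1 and 0.360 to 0.795 CPM in E60_3 and the E70 whole cells. In interneuron-like cells of E60_3, 0 UMIs in 267 cells allow up to 1.44 CPM. Nuclei of excitatory-like cells had 7.53 CPM (19 UMIs), above every whole cell library. Microglia-like cells, at 1.77 to 28.4 CPM in whole cell libraries, held more HES1 than the neuron-like cells in 6 of 6 libraries.

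Among vessel cells, HES1 and VIM were found in endothelial-like, mural-like and fibroblast-like cells. Endothelial-like cells, which line the vessels, held HES1 at 61.8 CPM in E50_1, 18.7, 25.6 and 193 CPM at E60, 212 CPM in E70_3 and 175 CPM in the adult. Mural-like cells held 95.6, 10.7 and 19.0 CPM in E50_1, E60_1 and E60_2 and 336 CPM in the adult. The highest HES1 level of a class was in 116 fibroblast-like nuclei of the adult, at 575 CPM (51 UMIs), and these nuclei had a median of 688.5 UMIs. VIM in fibroblast-like cells, which make collagen around vessels and in the meninges, was at 2304, 2222 and 1640 CPM in E50_1, E60_1 and E60_3. Mural-like cells of E60_1 and E60_2 held FABP7 at 1461 and 610 CPM, above the microglia-like cells of these libraries, and those of E50_1 and the adult at 92.3 and 14.6 CPM. The mural-like cells of E60_1 and E60_2 also held SOX9 at 53.5 and 38.1 CPM. Without the cells of highest doublet score, the vascular over neuron log2 ratio of FABP7 was -0.70, against -0.15 with all cells. The part of glial RNA or doublets in the mural FABP7 was not tested.

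Cells of the radial glia and astroglia-like class with mitotic transcripts were compared with cells without them. Cells with at least 2 UMIs over 10 mitotic genes, of which 9 were found, were set against cells with none in 5 libraries. The log2 ratio was 0.01 ± 0.27 for SOX9, -0.12 ± 0.32 for VIM, -0.25 ± 0.31 for SOX2 and -0.28 ± 0.38 for HES1 (SD, n = 5). FABP7 was lower in the cells with mitotic UMIs in 5 of 5 libraries, at -0.61 ± 0.56. The gap was widest in E60_3 (2913 against 7411 CPM) and E70_3 (3639 against 7540 CPM). It set 315 cells against 28 in E60_3 and 278 against 74 in E70_3. The mitotic cluster held only 127 and 103 cells of these libraries. Depth was not matched, and the cells with mitotic UMIs were deeper, with medians of 12733 against 8158.5 UMIs in E60_3. The part of depth and of cluster make-up in these ratios was not tested. Between the radial glia-like clusters, HES1 was lower in the mitotic cluster than in the cluster led by SLCO1C1 and GLI3 in 4 of 4 libraries, at 102 against 150 CPM in E50_1, 56.2 against 185 in E60_3, 15.5 against 63.6 in E70_2 and 108 against 176 in E70_3. The HES1 value of 15.5 CPM in E70_2 rested on 5 UMIs in 20 cells. SOX9 was also lower in the mitotic cluster in 4 of 4 libraries, at a log2 ratio of -0.33 ± 0.18 (SD, n = 4). The log2 ratios between these clusters were -0.12 ± 0.18 for SOX2, 0.06 ± 0.52 for VIM and -0.73 ± 0.52 for FABP7 (SD, n = 4).

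How often the genes were found together in single cells was counted next. At 1000 UMIs per cell, 5437 cells of the class in 9 libraries held SOX2 with FABP7 in 890 cells, where independence within each library gives 840.4. SOX9 with HES1 were in 30 cells against 29.2, and VIM with FABP7 in 2939 against 2889. Of the 10 pairs, 9 were seen at least as often as independence gives, and SOX2 with HES1 was seen in 72 cells against 75.2. In E60_1 SOX2 with SOX9 (30 against 34.8), SOX2 with VIM (180 against 191) and VIM with FABP7 (1346 against 1366) were rarer than that. SOX9 with HES1 was too (1 against 1.21), and the remaining pairs were more frequent there. Every other library also held a pair rarer than independence gives, such as SOX9 with VIM in E60_2 (82 against 85.5). SOX2 with VIM in E70_3 (28 against 30.4) was another. The class pools several clusters and no other gene pairs were counted, so these numbers are a description. At this depth 36.0% of the cells of E50_1 held at least 3 of the 5 genes, as did 15.6% in E60_1 and E60_2, 24.3% in E60_3 and 19.5% in E70_3. The share was 10% of 30 cells in E70_1, 13.3% of 60 cells in E70_2, 8.62% of 58 adult cells and 1.74% of 115 E70 nuclei. Among neuron-like cells the share was at most 0.131% in any library, and among vascular-like cells at most 1.31%.

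The other genes of the Notch pathway and of outer radial glia were read in the same glial class. None of the 13 Notch pathway genes tested, of 17 listed, passed the E60 against E70 test, and their median log2 E70 over E60 was -0.75 beside -0.03 over all genes tested. All list medians here include E60_1 and E60_2, and none was computed without them. The values of the receptor NOTCH3 (-1.19 ± 0.46, SE), the HES1 relative HEY1 (-2.34 ± 0.72) and the receptor-modifying enzyme LFNG (-1.50 ± 0.52) had edgeR adjusted p of 0.25, 0.21 and 0.23. RBPJ stood at 0.74 ± 0.29 (edgeR adjusted p = 0.26). LFNG was at 62.8 and 44.6 CPM in E60_1 and E60_2 but at 17.1 CPM in E60_3, against 14.5 to 17.9 CPM at E70. NOTCH3 was at 33.2, 34.1 and 24.9 CPM at E60 and at 9.85, 7.55 and 22.3 CPM at E70. RBPJ was at 116, 124 and 177 CPM at E60 and at 250, 289 and 188 CPM at E70. HEY1 was at 47.2 CPM in E50_1, 127, 47.8 and 20.6 CPM at E60, 15.8, 6.60 and 18.6 CPM at E70 and 17.9 CPM in the adult whole cells. HES5, another Notch target of neural stem cells, was counted at 0.404 CPM or less in every library. Of 10 outer radial glia genes 10 were tested and 0 passed, with a median of -0.72. The SOX family list had 0 of 6 tested genes called, with a median of -0.07. SOX1, SOX3 and SOX21, the near relatives of SOX2, were counted at 0.180 CPM or less in every library of the class. Such counts, like those of HES5, do not show that the transcripts are absent. Whether the gene rows cover the 3′ ends that were read was not tested. The list of intermediate filaments and fatty acid binding proteins had 0 of 5 called. TNC, PTPRZ1, LIFR and FAM107A of the outer radial glia list and NES and GFAP also served as markers for naming clusters. NES, the filament nestin, was at 89.5 CPM in E50_1 and at 3.59 to 48.8 CPM in the other whole cell libraries, and GFAP, the filament of astrocytes, was at 86.7 to 466 CPM in fetal whole cells and 2286 CPM in the adult. The telencephalon and the midbrain and hindbrain lists had 0 of 3 and 0 of 2 tested genes called.

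The genes most like each member were found over 78 sums of a named class in a library, which share libraries and depth, so the correlations are a description. Among 8323 genes, SOX2 was most like CNMD (Pearson r = 0.78), FABP7 (0.76) and PTPRZ1 (0.74), and SOX9 was most like PTPRZ1 (0.86), PDLIM3 (0.83) and an unnamed gene. FABP7 was most like DBI (0.82), a carrier of acyl-CoA, PTN (0.81), a secreted growth factor, and PTPRZ1 (0.78), a receptor of PTN. PTPRZ1 is also among the radial glia markers that named the clusters. VIM was most like TIMP1 (0.88), an inhibitor of matrix proteases, PON2 (0.87) and GPX8 (0.86). HES1 had lower values, with FOXO1 (0.69), ZFP36L2 (0.69) and CYR61 (0.67). Between members r was 0.72 for SOX2 and SOX9, 0.78 for SOX9 and FABP7 and 0.63 for HES1 and VIM, against 0.12 for SOX2 and HES1 and 0.07 for HES1 and FABP7.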

How the data were processed

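Per the labels and the study's methods, cells and nuclei went through 10x Genomics 3′ libraries, and the authors counted reads against Sscrofa11.1, introns included, with Cell Ranger (2.20 in the submitters' processing notes). The deposited files are raw UMI counts per gene and cell, 1 matrix per library, with no normalization. Here all barcodes deposited were kept. Cells were log-normalized, aligned between libraries by mutual nearest neighbours (3000 variable genes, 50 components) and clustered by the Louvain method (igraph 0.11.9) at resolution 1.6 into 43 clusters, and a cluster was named by its highest score over marker lists with at least 3 markers detected. The 5 genes were kept out. Scrublet (scanpy 1.11.5) called 186 doublets (0.659%), and none in E60_1 and E60_2, so no cells were removed and their removal was an alternative, also at an expected rate (1077 cells). UMIs were summed per class and library and tested with edgeR 4.0.16 (filterByExpr, TMM, glmQLFTest, Benjamini-Hochberg, 0.05), without pairing, and with DESeq2 1.42.0 as an alternative. On simulated data with 200 genes changed 4-fold, edgeR recovered 51% among 14215 genes of the radial glia and astroglia-like class and 41% among 14033 of the neuron-like class. It made 8 and 2 false calls. The simulated libraries lacked the split of E60_1 and E60_2 from E60_3, so these shares do not give the power of the real tests. Named genes were the members, the 3 genes most correlated with each (mean of at least 20 CPM), and called genes of the lists, of which there were none. List genes that were not called (such as NOTCH3, HEY1 and LFNG, with an unadjusted p under 0.05) and the genes that lead clusters were named after their values were seen. The 6 genes and all lists were chosen with earlier results of these data known. Counts of 0 are read against 3 UMIs, and such limits cover counting error only. 1 gene of a list is not reported here.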

Additional observations from a re-analysis of the deposited data

Results flagged for a closer look

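Cells that entered none of the comparisons above held members of the set at 10 times or more the level of the microglia-like cells of the same library, with at least 3 UMIs in both. In E60_1, VIM was at 1965 CPM in an unnamed cluster led by the cilia genes WDR49, AK7 and RSPH1 and at 2730 CPM in an unnamed cluster led by MCIDAS, CCNO and FOXJ1, which are known for making multiciliated cells, against 183 CPM in microglia-like cells. Photoreceptor-like cells, a class that shares markers with the pineal gland, had HES1 at 120.7 CPM in E50_1 (8.61 CPM in microglia-like cells). The same class had FABP7 at 297 CPM in E70_1 and 344 CPM in E70_3 (24.6 and 29.4 CPM) and VIM at 233 CPM in E70_3 (20.6 CPM). Over all cells of the E70 whole cell libraries FABP7 was at 503 to 1155 CPM and VIM at 200 to 287 CPM. These E70 values were thus not high against all cells. The VIM values of E60_1 and the HES1 value lay above the all-cell levels, at most 1118 CPM at E60 and 38.6 CPM in E50_1.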

How the results depend on the processing

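The count of genes called between E60 and E70 rested on single libraries. With 1 library left out it ranged from 0 to 1236 in radial glia and astroglia-like cells, 0 to 4709 in neuron-like cells, 0 to 2757 in vascular-like cells and 0 to 165 for the difference between classes, with the highest counts in each case without E60_3. Without E70_3 it was 1137 in the glial class and 795 in neuron-like cells, and it was 0 without any other library. DESeq2 called 854, 1480 and 7 genes in the 3 classes, and a block for shared sequencing pools called 1 gene in the glial class. The replicate block called 0 genes in the glial class (1537 at an unadjusted p under 0.05) and 0 in neuron-like cells (1135). Same-numbered libraries did not deviate together (correlations of -0.11, 0.06 and -0.07 in the glial class and -0.23, 0.02 and -0.19 in neuron-like cells), so the numbers were not taken as pairs. In vascular-like cells libraries of at least 20 cells shared only number 3. With at least 10 cells all 3 numbers were shared (correlations of -0.093, 0.17 and -0.019), and the replicate block called 0 genes (1887 at an unadjusted p under 0.05), with SOX2 at -0.078 and FABP7 at -1.15. The cause of these differences was not tested.

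Log2 values of E70 over E60 that were not called changed sign as follows. In the glial class SOX2 ranged from -0.46 to 0.019, HES1 from -0.53 to 2.41 and FABP7 from -1.15 to 0.023 with 1 library left out. SOX2 was 0.10 with the pool block, and with E60_3 as the only E60 library SOX2 was 0.20 and HES1 -0.77. With clusters made in each library alone SOX9 was 0.077 and FABP7 0.25 there, SOX2 was 0.57 in neuron-like cells, and SOX2 was -0.32 and FABP7 -0.54 in vascular-like cells. With a minimum of 10 cells SOX2 was -0.15 and FABP7 -0.73 in vascular-like cells. For the difference between classes HES1 ranged from -0.16 to 0.44 and FABP7 from -0.66 to 0.23 with 1 library left out, HES1 was -0.18 with clusters of each library alone, and HES1 was -0.29 and FABP7 0.41 with 10 cells. Of 135 alternative class ratios 133 moved by less than 1 SD. The exceptions, with clusters of each library alone, were SOX2 in the glial class over neuron-like cells (4.09) and SOX9 in vascular-like over neuron-like cells (-0.79). Alternatives with 1 library left out are in the 135 but could not move by 1 SD, because the SD was taken over the same libraries. They therefore add nothing to the count. Chosen after seeing the data were E60_3 as the only E60 library, the minimum of 10 cells with and without the block, radial glia-like clusters alone, the mitotic cluster left out, the cells of highest doublet score left out, and, for the class ratios, single libraries or E60_1 and E60_2 together left out.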

Other observations

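An unnamed cluster of 648 cells led by KCNIP3, OLIG1, EGFR and DLL3 held all 5 genes. Over 7 libraries its levels relative to radial glia-like cells were lower for VIM and FABP7 in 7 of 7, by mean log2 ratios of -0.57 ± 0.36 and -0.60 ± 0.28 (SD, n = 7). SOX2 (-0.31 ± 0.31), SOX9 (-0.27 ± 0.29) and HES1 (-0.38 ± 0.57) were higher in the radial glia-like cells in 6 of 7.

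In adult oligodendroglia-like whole cells SOX2 was at 55.7 CPM and SOX9 had 0 UMIs in 196 cells, which allows up to 1.67 CPM, where E50_1, E60_1, E60_2 and E70_3 had SOX9 at 54.2 to 120 CPM. FABP7 in that class was at 195 CPM in the adult and 1549 to 2298 CPM in the 4 fetal libraries. Of the 196 adult cells 194 came from a cluster led by TF, ERMN and OPALIN, which gave at most 3 cells in any fetal library. The fetal cells came mostly from clusters led by GPR17, so these adult and fetal values come from different clusters.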
